A study of Rattus norvegicus with 6 samples.

Results

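Endothelial cells line the inner surface of every blood vessel and of the heart chambers, and in heart muscle most of them form the dense capillary bed between the muscle fibres. They hold the vessel closed through cell junctions, pass fatty acids from the blood to the muscle, set vessel tone with nitric oxide, and respond to vascular growth factors through surface receptors. When inflamed they place adhesion molecules on their surface that capture passing leukocytes. A list of 45 rat genes with known roles in these cells was followed by gene symbol: 15 for identity and junctions, 7 of the vessel wall and its contact with blood, 9 for signalling receptors and a ligand, 5 transcription factors, 2 for capillary lipid handling, 3 of the Notch pathway and 4 of activation. Of these, 44 stood among the 17487 symbols of the count table and 40 among the 9205 that held enough reads to test.

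The samples were hearts of adult male Wistar rats, an outbred laboratory strain, with 1 library per animal. In the doxorubicin group, 3 rats were given weekly doses of 3.75 mg/kg doxorubicin hydrochloride, an anthracycline used against cancer, into the tail vein over 4 weeks. The 3 control rats were injected with 0.9% sodium chloride on that schedule. Total RNA was used, and the libraries were made with an mRNA kit from heart tissue, so endothelial transcripts were read in a mixture with those of muscle, mural, connective and immune cells. Fewer endothelial cells and less RNA per endothelial cell cannot be told apart in such bulk samples. The labels name neither the part of the heart nor the interval after the last dose.

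The libraries held 2219685 to 3508282 counts, of which the 44 genes took 0.383% to 0.493%. Levels are given in CPM, read counts relative to library totals scaled by edgeR's trimmed mean of M-values (TMM), and 3 counts, taken as the smallest detectable level, equal 0.849 to 1.33 CPM. Control library 1 stood apart. Its scaling factor was 0.892 against 1.01 to 1.05 in the others, hemoglobin transcripts took 0.658% of its counts against 0.0678% to 0.280%, and the atrial muscle gene Myl7 had 429 counts against 7 to 20. Other atrial markers set it apart less. Myl4 had 179 counts there against 17 to 81 elsewhere. Sln had 60 counts there and 59 in control library 3, against 0 to 6 elsewhere. Pecam1 and Cdh5, defining endothelial genes, were read in every library. The 8 cardiomyocyte markers summed to 128621 to 151692 CPM in control and 102238 to 118764 CPM in doxorubicin libraries, and all 8 had a log2 fold change below 0 (47.9% of all symbols did). Of these Myh6, Mb and Tnni3 had an unadjusted p under 0.05, with log2 fold changes of -0.73, -0.59 and -0.45 in edgeR. The part of muscle content in the endothelial values was not tested.

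None of the 40 tested endothelial genes passed the threshold, a Benjamini-Hochberg adjusted p under 0.05 over all tested symbols in edgeR's quasi-likelihood test, where 0.0543% of all symbols did (0.0217% higher and 0.0326% lower). At an unadjusted p under 0.05 there were 8 endothelial genes, 20.0% of those tested, against 8.1% of all symbols (4% higher and 4.11% lower). Of the 8, 5 were lower in doxorubicin hearts, namely Cldn5, Aplnr, Cd93, Tie1 and Fabp4, and 3 were higher, the activation genes Sele, Vcam1 and Icam1. Control and doxorubicin values were fully separated for 8 endothelial genes (20.0%), against 13.5% of all symbols. Of these, 6 lay below control (7.09% of all symbols did), namely Cldn5, Aplnr, Tie1, Fabp4, Icam2 and Rasip1, and 2 lay above it (6.38%), Sele and Icam1. The median log2 fold change over the 40 genes was -0.06, beside 0.02 over all symbols, and 35 of the 40 lay within 0.5 either way. Above 0 were 18 of the 40, against 52.1% of all symbols. The median was 0.02 with scaling by library size only and 0.02 without control library 3, and 0.01 without doxorubicin library 3, so its sign rested on these choices. The contrast in counts at an unadjusted p under 0.05 depended in size on single libraries. Without control library 3 the count was 3, or 7.5% of the endothelial genes against 6.76% of all symbols. It was 5 without doxorubicin library 2 (12.5% against 9.53%), 4 without doxorubicin library 3 (10% against 6.42%) and 7 without control library 1 (17.5% against 5.61%). Without doxorubicin library 1 it was 7 (17.5% against 6.69%), and without control library 2 it was 6 (15% against 9.29%). With no filter on low counts edgeR called 1 endothelial gene (Cldn5) among 61 of 13050 symbols, against 5 of 9205 in the test used here. DESeq2 was fitted to the same 13050 symbols and called 74, with 2 endothelial genes among them (Cldn5 and Aplnr). Its default filter can leave symbols of low count without an adjusted p, so the 74 cannot be read as a share of 13050.

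**Figure D1:**
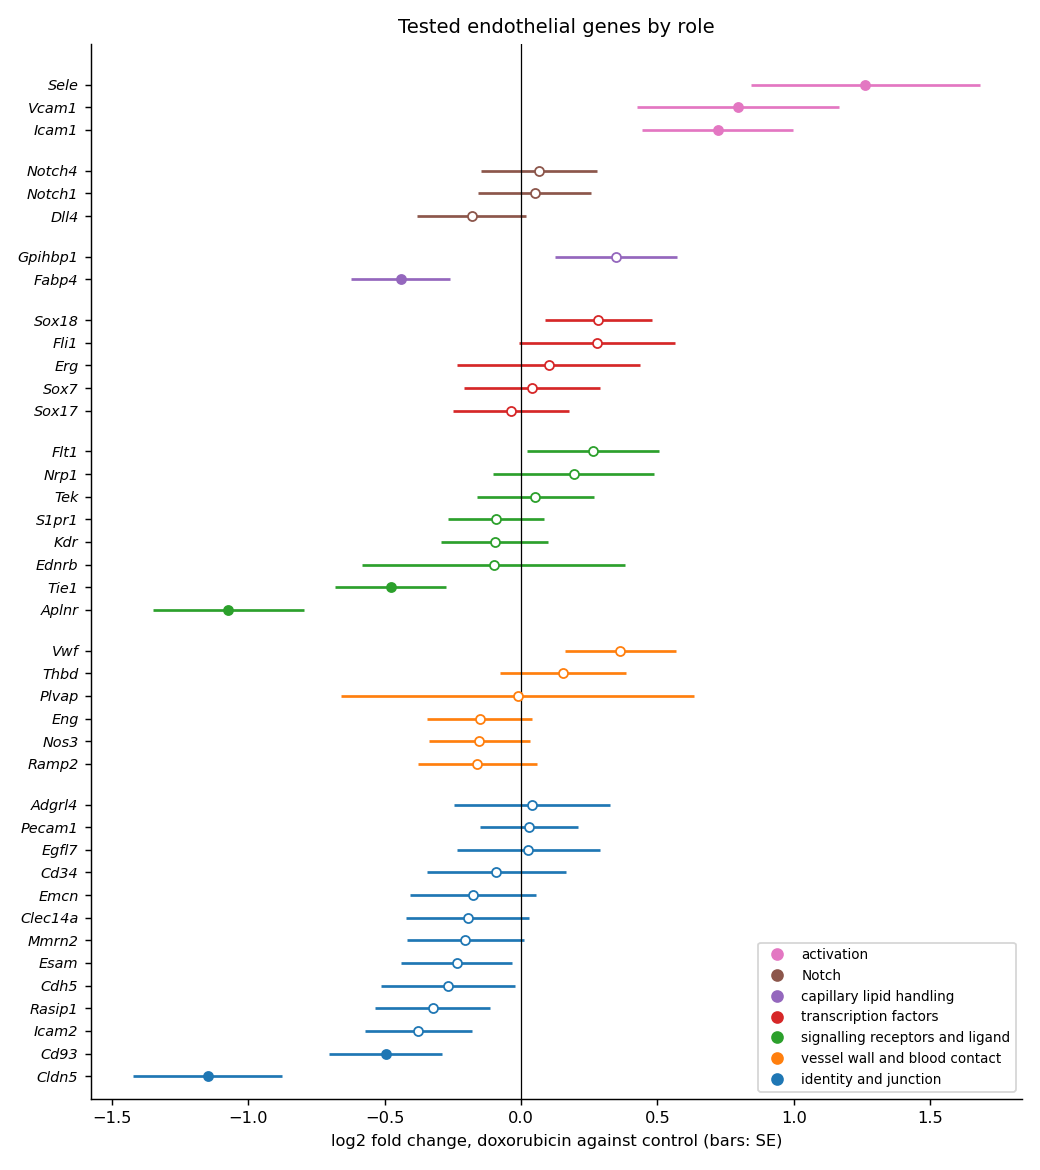
Log2 fold change of the 40 tested endothelial genes, doxorubicin against control (x axis, points with SE bars), grouped by role on the y axis, with filled points for an unadjusted p under 0.05. The 3 activation genes lie between 0.72 and 1.26, and Cldn5 (-1.15) and Aplnr (-1.07) lie farthest below 0.

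Among the identity and junction genes, 13 of 15 were tested, 10 with a log2 fold change below 0 and 3 above it, and the group's median was -0.20. Cldn5 encodes claudin-5, a tight junction protein of endothelial cells. Its level was 73.9, 66.0 and 58.3 CPM in control libraries 1, 2 and 3 and 41.0, 31.4 and 17.0 CPM in doxorubicin libraries 1, 2 and 3. All 3 doxorubicin hearts lay below all 3 control hearts, on 149 to 206 counts in the control and 58 to 128 counts in the doxorubicin libraries. The group means were 66.1 ± 7.79 and 29.8 ± 12 CPM (SD, n = 3). The log2 fold change was -1.15 (SE 0.27, 2.22-fold lower). The adjusted p was 0.158 in edgeR, 0.0172 in edgeR without the low-count filter and 0.0254 in DESeq2, and over all alternatives it ran from 0.0172 to 0.555. Without control library 1 the log2 fold change was -1.05, and without doxorubicin library 3, the lowest, it was -0.85.

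The other junction genes did not show a difference of that size. Pecam1, an adhesion receptor at endothelial contacts that is widely used to count these cells, stood at 330, 280 and 343 CPM in control and 361, 329 and 283 CPM in doxorubicin hearts. The groups overlapped throughout, with a log2 fold change of 0.03 (SE 0.18). Cdh5, which encodes VE-cadherin of the adherens junction, was 72.4, 141 and 125 CPM in control and 75.2, 117 and 88.7 CPM in doxorubicin hearts. Its lowest value of all was that of control library 1, and the log2 fold change was -0.27 (SE 0.25). It was -0.50 without that library (unadjusted p 0.0267 in edgeR) and -0.07 without control library 2. Esam, another adhesion protein of tight junctions, was 146, 148 and 151 CPM in control, the closest agreement of any tested endothelial gene (coefficient of variation 1.70%). In doxorubicin libraries 1 and 2 it was 140 and 149 CPM, and 88.7 CPM in doxorubicin library 3. The log2 fold change of Esam was -0.24 (SE 0.20), and -0.03 without that library.

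Cd93, a lectin-like receptor on endothelial cells, was 82.7, 109 and 130 CPM in control and 67.2, 88.0 and 73.4 CPM in doxorubicin hearts. Doxorubicin library 2 lay above control library 1, so the groups overlapped, with a log2 fold change of -0.50 (SE 0.21, adjusted p 0.548 in edgeR), which was -0.33 without control library 3. Icam2, an adhesion molecule present on resting endothelium, was 55.6, 49.6 and 50.7 CPM in control and 45.1, 37.9 and 37.0 CPM in doxorubicin hearts. Its groups did not overlap, with a log2 fold change of -0.38 (SE 0.20, adjusted p 0.657 in edgeR). Rasip1, a regulator of vessel lumen formation, was 104, 105 and 113 CPM in control and 102, 95.5 and 59.3 CPM in doxorubicin hearts. Its groups were separated by a small gap, with doxorubicin library 3 far below the rest (log2 fold change -0.32, SE 0.21, and -0.11 without that library). Egfl7, a secreted endothelial protein, ran in doxorubicin hearts from 84.3 CPM in library 3 to 200 CPM in library 1, a range that enclosed the control values of 118 to 163 CPM. Emcn, Mmrn2, Clec14a, Cd34 and Adgrl4 had log2 fold changes of -0.20 to 0.04, and their groups overlapped. Robo4, a guidance receptor of vessels, was listed at 0 in all 6 libraries. Such a 0 may reflect how reads were assigned to genes, which is not given in the sources used here, and does not show that the gene is silent. No row carried the symbol Ecscr, which was not analysed here.

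**Figure D2:**
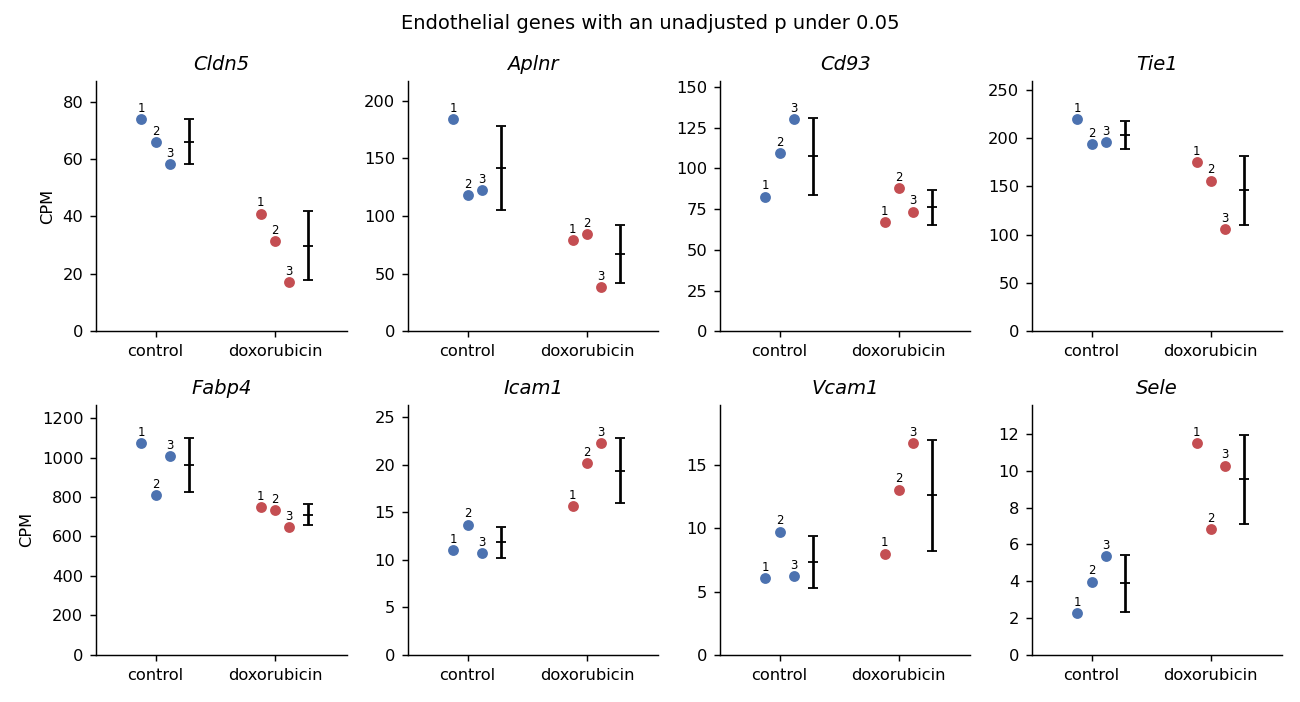
Level in CPM (y axis, from 0) of the 8 endothelial genes with an unadjusted p under 0.05 in each library, control and doxorubicin (x axis); numbers give the library, and the bars the mean and SD of 3 libraries. For Cldn5, Aplnr, Tie1 and Fabp4 all doxorubicin values lie below control, for Sele and Icam1 all lie above, and for Cd93 and Vcam1 the groups overlap.

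Of the 7 genes of the vessel wall, 6 were tested and none had an unadjusted p under 0.05. Vwf encodes von Willebrand factor, which endothelial cells store and release for platelet adhesion. It was 171, 192 and 156 CPM in control and 226, 274 and 167 CPM in doxorubicin hearts. Doxorubicin libraries 1 and 2 lay above all controls and library 3 among them, with a log2 fold change of 0.36 (SE 0.20, adjusted p 0.683 in edgeR). It was 0.20 without doxorubicin library 2 and 0.54 without doxorubicin library 3 (unadjusted p 0.0198 in edgeR). Nos3, the endothelial nitric oxide synthase gene, was 118, 106 and 131 CPM in control and 115, 116 and 88.7 CPM in doxorubicin hearts. The values overlapped, with a log2 fold change of -0.15 (SE 0.18), which was -0.03 without doxorubicin library 3. Thbd, the gene of the anticoagulant receptor thrombomodulin, was 79.6, 89.4 and 80.7 CPM in control, and only doxorubicin library 1, at 131 CPM against 67.8 and 79.3 CPM, stood outside that range by much. Eng, a coreceptor for ligands of the TGF-beta family, and Ramp2, the partner of the adrenomedullin receptor, lay at -0.15 (SE 0.19) and -0.16 (SE 0.22) on the log2 scale.

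Plvap, which forms the diaphragms of fenestrated and caveolar openings and is low in heart capillaries, had 28, 8 and 8 counts in control and 8, 34 and 10 in doxorubicin libraries. A single library of each group was high, and the log2 fold change of -0.01 carried an SE of 0.65. Cav1, the main coat protein of endothelial caveolae, stood on 2 rows, which together held 0 to 3 counts in a library. How reads shared by several rows were counted is not given in the sources used here, and no difference could be measured.

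The apelin receptor gene Aplnr had the largest difference among the receptors. The receptor is found on endothelial cells and binds apelin, a peptide that acts on vessel growth and heart contraction. Its level was 184, 118 and 123 CPM in control libraries 1, 2 and 3 and 79.3, 84.3 and 38.2 CPM in doxorubicin libraries 1, 2 and 3. Every doxorubicin heart lay below every control heart, on 130 to 483 counts per library. The means were 142 ± 36.8 and 67.3 ± 25.3 CPM (SD, n = 3). The log2 fold change was -1.07 (SE 0.28, 2.11-fold lower). The adjusted p was 0.202 in edgeR and 0.0319 in DESeq2, and it ran from 0.0319 to 0.776 over all alternatives. The highest value was that of control library 1, and without it the log2 fold change was -0.84. It was -0.78 without doxorubicin library 3. Apln, the ligand gene, was listed at 0 in all 6 libraries, with the same limit as for Robo4.

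Tie1 and Tek encode the paired receptors of the angiopoietin system, which keeps mature vessels quiet. Tie1 was 219, 194 and 195 CPM in control and 175, 156 and 106 CPM in doxorubicin hearts. Its groups did not overlap, with a log2 fold change of -0.48 (SE 0.20, adjusted p 0.558 in edgeR). That value was -0.28 without doxorubicin library 3. Tek was 56.0, 97.4 and 91.4 CPM in control and 80.0, 84.0 and 89.9 CPM in doxorubicin hearts, all of the latter inside the control range (log2 fold change 0.05, SE 0.21). The ratio of Tek to Tie1 counts, which does not depend on scaling between libraries, was 0.255, 0.503 and 0.468 in control and 0.456, 0.539 and 0.850 in doxorubicin hearts. It overlapped between groups, with control library 1 lowest and doxorubicin library 3 highest.

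Kdr and Flt1 encode the main receptors for vascular endothelial growth factor (VEGF), Kdr as the chief signalling receptor and Flt1 as a tight binder that also limits the ligand. Kdr was 152, 184 and 220 CPM in control and 202, 169 and 149 CPM in doxorubicin hearts. Flt1 was 79.2, 137 and 175 CPM in control and 169, 155 and 147 CPM in doxorubicin hearts. The groups overlapped for both, with log2 fold changes of -0.10 (SE 0.20) for Kdr and 0.26 (SE 0.24) for Flt1. The value for Flt1 was 0.0092 without control library 1 and 0.54 without control library 3. Flt1 stood on 2 rows with 788 and 1873 counts in all, which were summed. The ratio of Flt1 to Kdr counts was 0.521, 0.745 and 0.798 in control and 0.835, 0.917 and 0.984 in doxorubicin hearts. This ratio was higher in 3 of 3 doxorubicin hearts than in any control heart, by 0.43 on the log2 scale, with control library 1 lowest. A 2-sided exact permutation test gave p = 0.1, below which 3 against 3 libraries cannot go, and 0.35 after adjustment over the 7 ratios compared.

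Nrp1, a coreceptor for VEGF, had 33.9 CPM in control library 1 against 68.5 to 94.6 CPM in the other 5 libraries (log2 fold change 0.19, SE 0.30). S1pr1, the receptor by which sphingosine phosphate tightens the endothelial barrier, was 170, 161 and 161 CPM in control and 172, 130 and 159 CPM in doxorubicin hearts (log2 fold change -0.09, SE 0.18). Ednrb, an endothelin receptor, rested on 7 to 34 counts per library and had a log2 fold change of -0.10 with an SE of 0.48.

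Among the 5 transcription factors the log2 fold changes ran from -0.04 to 0.28, with a median of 0.10, and none had an unadjusted p under 0.05. Erg and Fli1 are ETS-family factors that hold endothelial identity, and Sox7, Sox17 and Sox18 act in vessel and lymphatic formation. Sox17 was 30.6 to 32.8 CPM in control and 26.7 to 33.6 CPM in doxorubicin hearts, and Sox7 was 23.6 to 28.6 and 18.8 to 30.5 CPM. Sox18 was 88.0, 62.4 and 75.0 CPM in control and 87.7, 106 and 80.5 CPM in doxorubicin hearts (log2 fold change 0.28, SE 0.20). Erg had 24 counts (9.14 CPM) in control library 1 against 21.7 to 27.0 CPM elsewhere, and its log2 fold change of 0.10 was -0.25 without that library. Fli1 had its highest value in doxorubicin library 3, 35.3 CPM against 16.4 to 24.4 CPM elsewhere. The median of the 5 was -0.01 without control library 1 and 0.28 without control library 3.

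The 3 Notch pathway genes act where sprouting tips and arteries form: Dll4 is the endothelial ligand and Notch1 and Notch4 are receptors. Notch1 was 50.3, 67.8 and 82.1 CPM in control and 73.6, 67.5 and 66.7 CPM in doxorubicin hearts. Notch4 was 53.3, 69.5 and 93.1 CPM in control and 72.9, 76.5 and 77.6 CPM in doxorubicin hearts. Dll4 was 52.2, 43.8 and 45.0 CPM in control and 45.4, 36.4 and 42.6 CPM in doxorubicin hearts. For each the groups overlapped, and the log2 fold changes were 0.05 (SE 0.21), 0.07 (SE 0.21) and -0.18 (SE 0.20). Summed over the 3 genes, the control hearts ran from 155.8 to 220.3 CPM and the doxorubicin hearts from 180.3 to 192.0 CPM.

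Heart capillaries take up fatty acids with the help of Gpihbp1, which carries lipoprotein lipase to the capillary surface, and Fabp4, a cytoplasmic fatty acid carrier. Fabp4 was 1074, 811 and 1006 CPM in control and 747, 733 and 648 CPM in doxorubicin hearts. Its groups did not overlap, with means of 964 ± 136 and 709 ± 53.5 CPM (SD, n = 3) and a log2 fold change of -0.44 (SE 0.18, adjusted p 0.545 in edgeR). That value was -0.35 without control library 1, the highest, and -0.54 without control library 2. Without control library 3 it was -0.41 (unadjusted p 0.0917 in edgeR). The ratio of Fabp4 to Pecam1 counts was 3.25, 2.89 and 2.93 in control and 2.07, 2.23 and 2.29 in doxorubicin hearts. That ratio was lower in 3 of 3 doxorubicin hearts, by a log2 difference of -0.46, with a 2-sided exact permutation p of 0.1 and 0.35 adjusted over the 7 ratios. Fabp4 has close paralogs, and how the counting treated shared reads was not stated. The part of cells other than endothelium in the Fabp4 level of this mixed tissue was not tested. Gpihbp1 lay the other way, at 33.5, 49.6 and 56.6 CPM in control and 52.5, 60.0 and 65.8 CPM in doxorubicin hearts, with overlap between the groups (log2 fold change 0.35, SE 0.22). That of Gpihbp1 was 0.16 without control library 1 and 0.52 without control library 3.

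**Figure D3:**
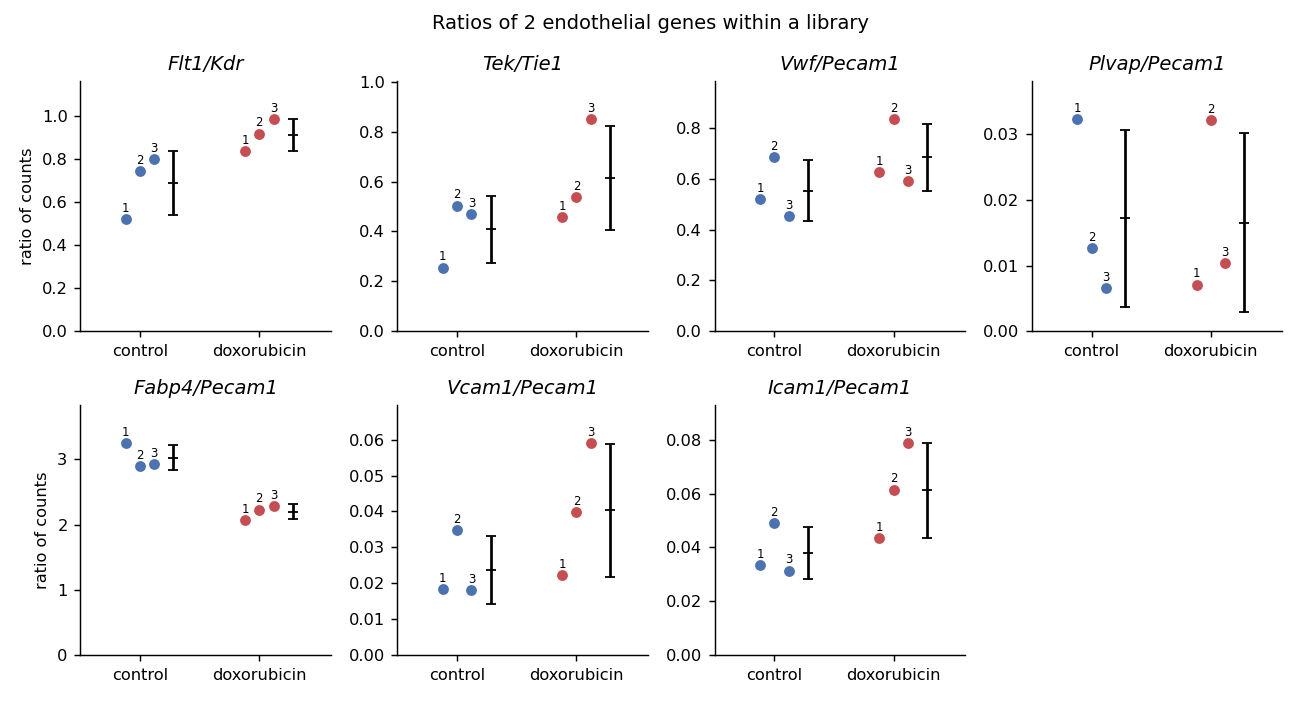
Ratio of the counts of 2 endothelial genes within each library (y axis, from 0) in control and doxorubicin hearts (x axis); numbers give the library, and bars the mean and SD of 3 libraries. Flt1/Kdr and Fabp4/Pecam1 do not overlap between the groups, and the other 5 ratios do.

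The activation genes encode adhesion molecules that inflamed endothelium shows to leukocytes: E-selectin (Sele) and P-selectin (Selp) for rolling, Vcam1 and Icam1 for firm adhesion. They rested on few counts, and the 3 tested genes had a median log2 fold change of 0.80. Sele had 6, 9 and 19 counts in control and 36, 22 and 35 counts in doxorubicin libraries, which is 2.29, 3.99 and 5.38 CPM against 11.5, 6.84 and 10.3 CPM. The groups did not overlap, with means of 3.88 ± 1.55 and 9.55 ± 2.42 CPM (SD, n = 3). The log2 fold change was 1.26 (SE 0.42, 2.40-fold higher), with an adjusted p of 0.396 in edgeR and 0.161 to 0.837 over the alternatives. Sele passed the low-count minimum in 2 control libraries and all 3 doxorubicin libraries.

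Icam1 was 11.0, 13.7 and 10.8 CPM in control and 15.7, 20.2 and 22.3 CPM in doxorubicin hearts, from 29 to 76 counts per library. Its groups did not overlap, with a log2 fold change of 0.72 (SE 0.28, 1.65-fold higher, adjusted p 0.498 in edgeR). Vcam1 was 6.09, 9.74 and 6.23 CPM in control and 8.0, 13.1 and 16.7 CPM in doxorubicin hearts, from 16 to 57 counts. Doxorubicin library 1 lay below control library 2, so the groups overlapped, with a log2 fold change of 0.80 (SE 0.37, adjusted p 0.615 in edgeR). Without doxorubicin library 3 that of Vcam1 was 0.55. Relative to Pecam1 counts, Icam1 and Vcam1 were higher by 0.68 and 0.72 on the log2 scale. Both ratios overlapped between the groups, with a 2-sided exact permutation p of 0.2 each and 0.35 adjusted over the 7 ratios. Selp had 3 to 6 counts in control and 3 to 8 in doxorubicin libraries, too few to test.

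Icam1 and Vcam1 are also made by leukocytes and other cells. The 8 macrophage markers were detected in these hearts, at a summed level of 157 to 176 CPM in control libraries. In doxorubicin libraries 1, 2 and 3 the sum was 188, 291 and 188 CPM. Of the 8, 7 had a log2 fold change above 0 (52.1% of all symbols did), and Adgre1 lay at -0.15. Only Cd163 and Mrc1 had an unadjusted p under 0.05 in edgeR, and all markers but Mrc1 overlapped between the groups. Cd163 was 3.05, 9.74 and 4.81 CPM in control and 16.6, 8.08 and 13.5 CPM in doxorubicin hearts. Mrc1 was 5.71, 19.0 and 21.8 CPM in control and 24.3, 30.2 and 28.2 CPM in doxorubicin hearts, all above control. Their log2 fold changes were 1.15 (SE 0.44) and 0.82 (SE 0.36). The part of these cells in the activation genes was not tested.

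The DNA before the start sites is shown for 2 genes that were higher and 2 that were lower, as examples of the windows searched for motifs. Members of the NF-kappaB family drive adhesion molecule genes in inflamed endothelium, and ETS factors such as Erg bind sites with the letters GGAA. The 250 bases before the annotated start are RefSeq sequence of the build GRCr8, given 5′ to 3′ on the gene's strand. Capitals mark matches to the NF-kappaB consensus, to GGANNTTCC, to AGGAAG (or its reverse complement) and to TATAAA, and the first 2 of these motifs can share bases.
Vcam1, chr2:206742784-206743033, minus strand: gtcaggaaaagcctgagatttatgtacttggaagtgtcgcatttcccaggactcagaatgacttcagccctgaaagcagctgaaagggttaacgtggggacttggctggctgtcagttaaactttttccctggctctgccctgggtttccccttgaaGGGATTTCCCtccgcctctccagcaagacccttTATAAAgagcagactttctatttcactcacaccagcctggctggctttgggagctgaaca
Icam1, chr8:27829595-27829844, plus strand: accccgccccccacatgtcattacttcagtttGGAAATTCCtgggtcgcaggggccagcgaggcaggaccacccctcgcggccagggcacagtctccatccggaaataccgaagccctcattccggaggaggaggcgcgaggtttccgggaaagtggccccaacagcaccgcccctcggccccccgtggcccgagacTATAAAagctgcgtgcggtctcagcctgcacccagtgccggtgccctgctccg
Tie1, chr5:137304982-137305231, minus strand: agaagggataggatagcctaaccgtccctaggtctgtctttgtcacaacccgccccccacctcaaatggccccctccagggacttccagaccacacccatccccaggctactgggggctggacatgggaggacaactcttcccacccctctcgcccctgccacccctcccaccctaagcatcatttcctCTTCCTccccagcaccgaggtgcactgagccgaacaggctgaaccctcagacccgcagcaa
Cldn5, chr11:95718599-95718848, minus strand: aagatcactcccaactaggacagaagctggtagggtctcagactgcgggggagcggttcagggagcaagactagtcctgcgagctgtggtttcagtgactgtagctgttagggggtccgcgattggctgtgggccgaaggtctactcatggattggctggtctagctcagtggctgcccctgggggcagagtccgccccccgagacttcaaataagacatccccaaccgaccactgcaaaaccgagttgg

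In Vcam1 the consensus match GGGATTTCCC begins 93 bases before the start, and TATAAA 60 bases before it. In Icam1 the letters GGAAATTCC begin 218 bases before the start and TATAAA 53 bases before it. The window of Tie1 holds CTTCCT, the reverse complement of AGGAAG, from 61 bases before the start, and the window of Cldn5 holds none of the 4 motifs. The window of Sele, which is not printed, held AGGAAG but none of the other motifs. Windows were at hand for 25 of the 44 genes, 27 windows in all. The NF-kappaB consensus, read on both strands, was in 4 of the 27 (Flt1, Kdr, Notch4 and Vcam1), against 3.54% of all 33469 windows of the same length. AGGAAG on either strand was in 13 of the 27 (48.1%), against 29.5% of all windows. GGANNTTCC was in 1 of the 27, that of Icam1, against 3.36% of all windows, and TATAAA on the gene's strand was in 4 against 8.06%. These matches describe letters and show no binding.

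Summed over all 44 genes, the endothelial level was 4615, 4430 and 4897 CPM in control and 4386, 4440 and 3667 CPM in doxorubicin libraries 1, 2 and 3. Doxorubicin library 3 was the lowest, and the others of that group lay inside or just under the control range. As a share of each library's counts, without that scaling, the sums were 0.412%, 0.451% and 0.493% in control and 0.447%, 0.457% and 0.383% in doxorubicin hearts. The Wilson 95% interval was 0.404% to 0.419% for control library 1 and 0.377% to 0.390% for doxorubicin library 3, and covers counting error only. The activation genes summed to 21.7 to 29.2 CPM in control and 36.2 to 50.2 CPM in doxorubicin hearts, the transcription factors to 169 to 185 and 189 to 208 CPM, and the lipid handling genes to 861 to 1108 and 714 to 800 CPM. These 3 sums did not overlap between groups, and the lipid sum is mostly Fabp4. The transcription factor sums nearly met, at 185.4 CPM in control library 3 and 188.6 CPM in doxorubicin library 3. As a mean of log2 CPM over the tested genes only, which weights genes alike, the factors overlapped (4.69 to 5.09 in control, 5.06 to 5.10 in doxorubicin). So did the lipid genes (7.58 to 7.91 and 7.64 to 7.72). The activation genes, here without the untested Selp, did not (2.62 to 3.15 and 3.58 to 4.03). Identity and junction genes summed to 1290 to 1484 CPM in control and to 1302, 1345 and 1006 CPM in doxorubicin hearts.

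**Figure D4:**
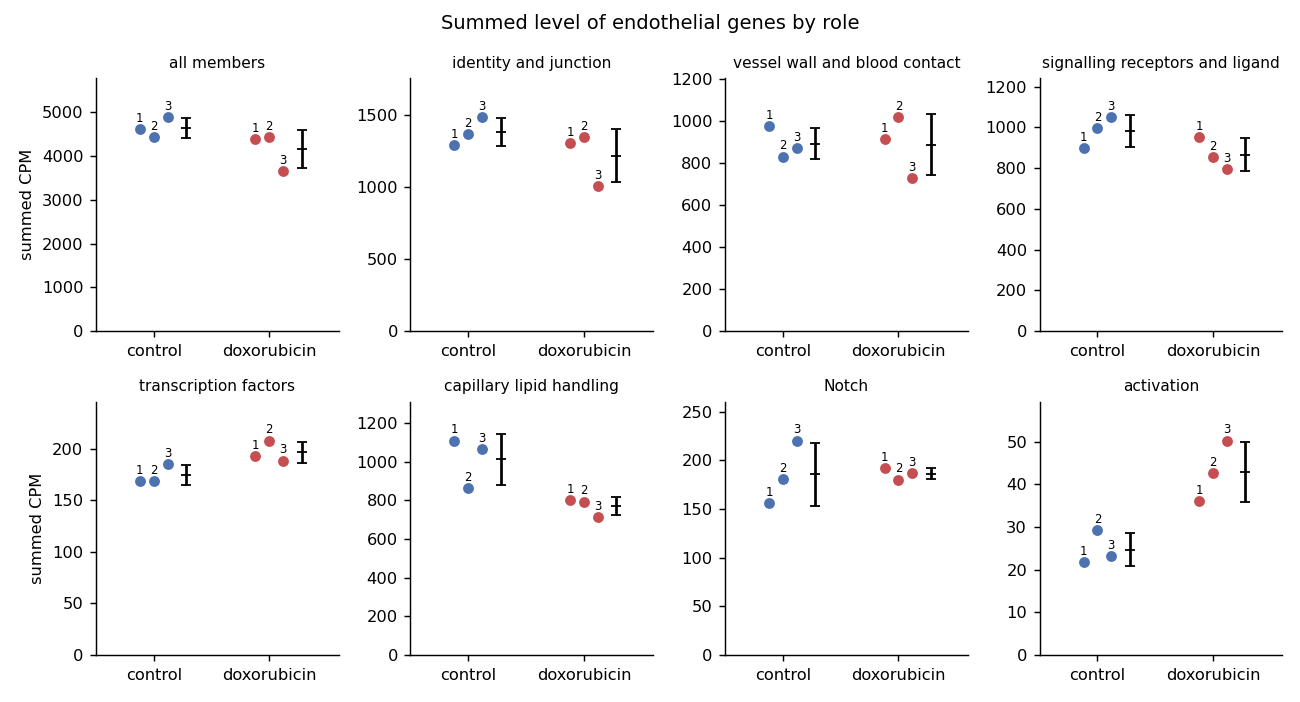
Summed CPM (y axis, from 0) of the endothelial genes by role in each library, control and doxorubicin (x axis); numbers give the library, and bars the mean and SD of 3 libraries. Doxorubicin library 3 is lowest for all members, identity and junction, vessel wall, signalling and lipid handling genes, and the sums of the activation, transcription factor and lipid handling genes do not overlap between groups.

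The lowest value of a gene fell most often in one of 2 libraries. Of the 40 tested genes, 14 were lowest in control library 1, among them Cdh5, Flt1, Nrp1, Tek, Erg, Fli1, Notch1 and Notch4. Another 14 were lowest in doxorubicin library 3, among them Cldn5, Esam, Tie1, Aplnr, Nos3, Eng, Kdr and Fabp4. The remaining 4 libraries held 2 to 4 lowest values each. The genes lowest in control library 1 had a median span on the chromosome of 42316 bases, and those lowest in doxorubicin library 3 one of 11711 bases. Control library 1 also held 10 highest values, against 9 in control library 3 and 5 or 6 in each of the others. These were Cldn5, Icam2, Mmrn2, Eng, Plvap, Ramp2, Tie1, Aplnr, Fabp4 and Dll4, with a median span of 10348 bases. The median coefficient of variation within a group was 19.0% in control and 18.2% in doxorubicin hearts.

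Gene span moved with the log2 fold change among endothelial genes as it did across the transcriptome. Spans come from the RefSeq table of GRCr8. Spearman's rho between them was 0.318 over the 40 endothelial genes and 0.218 over 8987 tested symbols, as a description across genes measured in the same libraries. Of the 11 endothelial genes in the longest of 3 equal-sized span classes of all tested symbols, 9 had a log2 fold change above 0, with a median of 0.053 beside 0.093 for all symbols of that class. Of the 20 in the shortest class, 7 lay above 0, with a median of -0.13 beside -0.073 for all. With a correction for span, the log2 fold changes were -1.03 for Cldn5, -0.97 for Aplnr, -0.35 for Fabp4 and 1.31 for Sele. Pecam1, Tek, Adgrl4 and Notch1 came to lie just under 0. Cd93 (-0.43, unadjusted p 0.0596 in edgeR) left the genes under 0.05, and Sox18 (0.42, unadjusted p 0.0268 in edgeR) joined them. The count ratios were not corrected for span. They pair Fabp4 (4711 bases) with Pecam1 (61740), Flt1 (171701) with Kdr (43174), and Tek (126721) with Tie1 (19640). The part of span in these ratios was not tested.

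**Figure D5:**
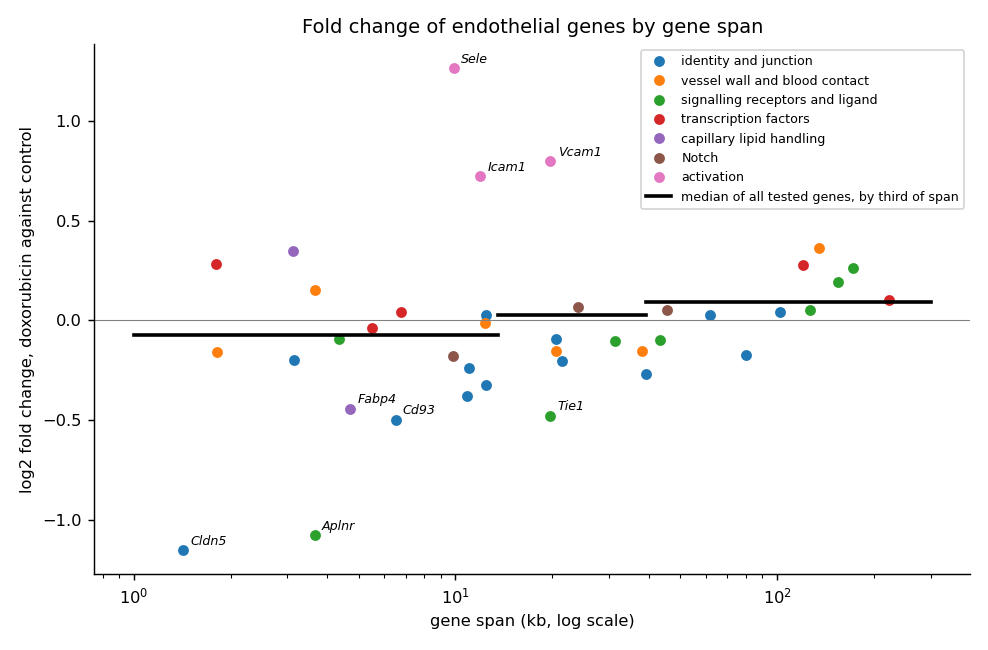
Log2 fold change (y axis) of the 40 tested endothelial genes against gene span in kb (x axis, log scale), coloured by role; black lines give the median of all tested symbols in each of 3 span classes. Cldn5 and Aplnr are among the short genes, and 9 of the 11 genes in the longest class lie above 0.

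Other genes of the same pathways were followed as a separate list of 41: ligands, receptor partners and regulators, and capillary transport genes. Of the 33 tested, none passed the adjusted threshold in edgeR, 6 had an unadjusted p under 0.05 (8.1% of all symbols did), 1 higher (4%) and 5 lower (4.11%), and the median log2 fold change was -0.12. Nrarp, a feedback inhibitor that Notch signalling switches on, was 55.2, 36.3 and 38.8 CPM in control and 28.5, 20.5 and 19.4 CPM in doxorubicin hearts. Its groups did not overlap, with a log2 fold change of -0.93 (SE 0.25, adjusted p 0.216 in edgeR). Hey1, Hey2 and Hes1, other Notch targets on the list, had log2 fold changes of 0.20, -0.32 and -0.28, each with overlap between the groups. Klf2, a factor that endothelium makes under blood flow, was 199, 116 and 91.4 CPM in control and 84.5, 72.1 and 107 CPM in doxorubicin hearts. Those groups overlapped, and control library 1 was the highest (log2 fold change -0.62, SE 0.26). Meox2, which with Tcf15 sets the fatty acid uptake of heart capillaries, was 27.0, 36.8 and 29.4 CPM in control and 21.1, 14.9 and 23.5 CPM in doxorubicin hearts (log2 fold change -0.64, SE 0.25).

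Aqp1, the water channel of continuous capillaries, was 689, 657 and 717 CPM in control and 435, 452 and 558 CPM in doxorubicin hearts. Its groups did not overlap, with a log2 fold change of -0.51 (SE 0.18, adjusted p 0.425 in edgeR). Elk3, an ETS-family repressor found in endothelium, was 110, 81.9 and 101 CPM in control and 68.8, 73.4 and 67.3 CPM in doxorubicin hearts (log2 fold change -0.49, SE 0.18). Slc2a1, a glucose transporter made by endothelium and by other cells, was 22.5, 20.8 and 23.5 CPM in control and 40.6, 45.4 and 30.0 CPM in doxorubicin hearts. It was higher in 3 of 3 doxorubicin hearts, with a log2 fold change of 0.79 (SE 0.23, adjusted p 0.288 in edgeR). Vegfa stood on 14 rows that together held 0 to 2 counts in a library, so the main VEGF ligand could not be compared.

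Markers of neighbouring endothelial types were followed too. The 6 lymphatic markers gave no shared direction, with 3 log2 fold changes above 0 and 3 below it. The 3 tested endocardial markers all lay above 0 (52.1% of all symbols did). Among the 6 lymphatic markers, Lyve1, a hyaluronan receptor that macrophages also carry, was 4.95, 12.4 and 9.91 CPM in control and 19.2, 16.8 and 19.1 CPM in doxorubicin hearts. Ccl21, a chemokine of lymphatic vessels, was 50.7, 47.8 and 47.3 CPM in control and 42.9, 28.9 and 24.7 CPM in doxorubicin hearts. Their log2 fold changes were 1.02 (SE 0.33) and -0.60 (SE 0.23), and Prox1, the lymphatic master regulator, overlapped between groups (0.24, SE 0.37). Pdpn lay above control in all doxorubicin hearts (0.49, SE 0.30), and Flt4 and Reln overlapped (-0.20, SE 0.42, and -0.54, SE 0.40). Of the endocardial markers, Npr3 had 20, 17 and 3 counts in control and 48, 34 and 54 in doxorubicin libraries (log2 fold change 1.45, SE 0.53), and Nfatc1 and Cdh11 had log2 fold changes of 0.05 and 0.11. The 9 mural cell markers, of pericytes and smooth muscle, had a median log2 fold change of 0.04 and none had an unadjusted p under 0.05. None of these markers passed the adjusted threshold in edgeR.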

How the data were processed

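The authors deposited raw counts per gene symbol for 6 libraries in a single table. FastQC, Trimmomatic, STAR, HTSeq and the build mRatBN7.2 are named, without versions, in the submitters' processing notes; strand use, counting mode and annotation are not given in the sources used here. Rows of a symbol were summed (599 symbols stood on several rows). Groups came from the sample titles. Log2 fold changes and p-values came from edgeR 4.0.16 in R 4.3.3 (quasi-likelihood F test, treatment only, TMM, robust dispersion, filterByExpr with minimum count 10 and total 15), with Benjamini-Hochberg adjustment over all 9205 tested symbols and a threshold of 0.05. The SE is the absolute log2 fold change divided by the square root of F. Of the 40 endothelial genes tested, 37 passed the filter's minimum in all 6 libraries. Ratios were compared by 2-sided exact permutation tests. Code was tested on simulated data. The genes with values per library are those with an unadjusted p under 0.05, those whose groups do not overlap, and a list of anchors; in the other lists, those with an unadjusted p under 0.05. Other genes were named after their values were seen. Members and lists were chosen with earlier results of these data known. Replicate numbers pair no animals in the labels. The titles call them biological replicates. Promoter windows and gene spans are RefSeq's for GRCr8, matched by symbol. Alternatives used DESeq2 1.42.0 and limma 3.58.1; permutation tests used scipy 1.17.1 under Python 3.11.15, and figures matplotlib 3.10.9.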

Additional observations from a re-analysis of the deposited data

How the results depend on the processing

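The results were recomputed under 17 other settings, of which scaling to the identity and junction genes was chosen after seeing the data. Against 0 endothelial genes past the adjusted threshold in edgeR, with 8 at an unadjusted p under 0.05, no filter gave 1 and DESeq2 gave 2. Fits that left out 1 library gave 0 to 0 past the threshold and 3 to 7 at an unadjusted p, where 5.61% to 9.53% of all symbols lay; the 3, without control library 3, are 7.5% of the endothelial genes against 6.76% of all symbols. Scaling to the identity and junction genes moved the median of all symbols from 0.02 to 0.22 and the endothelial median from -0.06 to 0.13. This scaling changes a single factor per library and shifts all genes nearly alike, so it cannot test the order of these medians. Library size only moved the median of all symbols to 0.10. Of the 40 genes, 17 kept their direction in every setting that tested them (Flt1 in 16 of the 17 settings). Among them were the 8 with an unadjusted p under 0.05. Only Cldn5, Aplnr and Sele kept such a p in all 17 settings (edgeR, DESeq2 or limma). Icam1 kept it in 15, Fabp4 in 11, Tie1 in 10, and Cd93 and Vcam1 in 9 each. The other 23 genes reversed at least once, at unadjusted p-values of 0.220 or more (edgeR or limma). The cause was not tested.

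Log2 fold changes became, with library size only, Plvap 0.10 and Sox17 0.048. With voom: Egfl7 -0.049, Plvap 0.020, Ednrb 0.13, Sox7 -0.0021. With the gene span correction: Pecam1 -0.055, Adgrl4 -0.016, Plvap 0.031, Tek -0.017, S1pr1 0.0045, Sox17 0.053, Notch1 -0.0041. With the identity scaling: Cd34 0.12, Nos3 0.029, Eng 0.022, Plvap 0.10, Ramp2 0.0043, Kdr 0.098, S1pr1 0.11, Ednrb 0.14, Sox17 0.17, Dll4 0.019.

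With the replicate number as a block 6 endothelial genes had an unadjusted p under 0.05 and 0 passed the adjusted threshold in edgeR; Egfl7 became -0.044 and Ednrb 0.030. With the block and the span correction, Pecam1 became -0.052, Egfl7 -0.0094, Tek -0.0037 and Sox17 0.050. Same-numbered libraries did not deviate together, with correlations of -0.19 to 0.021 between their deviations from the group means.

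Over the fits that left out 1 library, ranges that crossed 0 were -0.26 to 0.31 for Egfl7, -0.26 to 0.36 for Adgrl4, -0.95 to 0.92 for Plvap, -0.30 to 0.033 for Ramp2, -0.12 to 0.47 for Nrp1, -0.15 to 0.20 for Tek, -0.067 to 0.24 for Sox7, -0.25 to 0.34 for Erg, -0.11 to 0.23 for Notch1, -0.10 to 0.30 for Notch4, -0.050 to 0.13 for Pecam1, -0.35 to 0.050 for Clec14a, -0.51 to 0.44 for Ednrb, -0.31 to 0.16 for Cd34, -0.22 to 0.047 for Kdr, -0.17 to 0.35 for Thbd, -0.17 to 0.027 for S1pr1, -0.096 to 0.067 for Sox17, -0.40 to 0.031 for Emcn and -0.032 to 0.46 for Fli1. Depth limits Sele, Plvap and Ednrb, each with fewer than 10 counts in at least 1 library.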
